A study of Mus musculus with 21 samples.

Results

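CHD4 binding was described in wild-type mouse hearts of embryonic day 10.0 (E10.0), from the peak lists of 3 chromatin immunoprecipitation libraries. The members are all 195252 peaks of these lists, taken with no selection: 84271 in library 1, 60749 in library 2 and 50232 in library 3. The 3 libraries are 3 of the 21 samples of the series. They stand for 2 biological samples, since the series text gives 2 biological and 3 technical replicates, and the labels give 1 input to libraries 2 and 3 together and another to library 1. All embryos were of the CD1 strain, and chromatin was precipitated with the mouse monoclonal antibody 3F2/4 against CHD4. The 2 input libraries were not analysed here, so signal that would also appear without the antibody cannot be told apart from CHD4 signal. The series also holds RNA from hearts of Chd4 flox/flox controls (flox) and of embryos with the deleted allele on both chromosomes (null), also CD1, with 5 libraries of each at E9.5 and 3 of each at E10.5. The labels do not name the Cre line that made the deletion, and the assay and the RNA come from whole cardiac tissue of different stages.

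CHD4 is the ATP-dependent motor subunit of the nucleosome remodeling and deacetylase complex, NuRD, which joins nucleosome sliding with the histone deacetylases HDAC1 and HDAC2. The complex has no single DNA motif of its own and is brought to chromatin by transcription factors and by subunits that read DNA or histone marks. In the embryonic heart, partners of NuRD include the cardiac factors GATA4, NKX2-5 and TBX5, which also switch on the genes of the contractile apparatus. A peak in whole heart tissue can come from any cell type present, and the labelled tissue was checked on marker genes in the flox RNA. In flox hearts at E9.5 the 6 heart muscle markers (Tnnt2, Actc1, Myh6, Myh7, Myl7 and Nkx2-5) lay between 117 and 7921 RPKM (reads per kilobase of gene, scaled to library size). The 4 blood markers lay between 8.11 and 5968 RPKM, the 4 endothelial and endocardial ones between 29.8 and 62.8 RPKM, and the 3 liver and foregut markers reached at most 5.30 RPKM. At E10.5 the liver and foregut markers reached 50.2 RPKM, within the 23.8 to 53.9 RPKM of the endothelial ones, and their part in the peaks was not tested.

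The promoters below are shown because they carry the main contrasts of the peak lists: bound promoters that are rich in CpG, bound promoters of heart muscle genes that are poor in CpG, and promoters of active heart genes without a region of all 3 libraries. Each is the run of 250 bases before the annotated start, 5′ to 3′ on the gene's strand, from RefSeq for the build GRCm38.p6, with every CpG in capitals. The first 6 lie wholly inside a peak of each library and are the highest-ranked such promoters of the genes named here, leaving out those whose bases overlap an annotated gene, as at 3 histone genes. The last 3 were chosen after their values were seen.
Rpl13a, a ribosomal protein gene (chr7:45128746-45128995, minus strand): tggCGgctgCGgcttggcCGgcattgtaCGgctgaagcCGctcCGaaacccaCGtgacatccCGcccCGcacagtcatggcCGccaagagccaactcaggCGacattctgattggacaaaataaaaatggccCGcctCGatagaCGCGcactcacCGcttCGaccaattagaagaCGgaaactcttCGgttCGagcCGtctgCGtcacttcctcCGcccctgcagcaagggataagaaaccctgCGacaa
Tbx20, a cardiac T-box factor (chr9:24774304-24774553, minus strand): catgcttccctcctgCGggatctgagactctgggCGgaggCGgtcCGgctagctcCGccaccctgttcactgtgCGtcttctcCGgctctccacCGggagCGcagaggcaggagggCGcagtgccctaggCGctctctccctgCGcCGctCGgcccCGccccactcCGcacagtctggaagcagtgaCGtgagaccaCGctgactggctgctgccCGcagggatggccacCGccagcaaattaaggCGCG
Tbx18, a T-box factor of the epicardium and sinus horns (chr9:87731261-87731510, minus strand): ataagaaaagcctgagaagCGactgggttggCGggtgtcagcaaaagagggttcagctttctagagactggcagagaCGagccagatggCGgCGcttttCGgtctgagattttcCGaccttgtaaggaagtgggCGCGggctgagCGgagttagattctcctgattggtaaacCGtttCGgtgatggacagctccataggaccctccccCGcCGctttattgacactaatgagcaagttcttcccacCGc
Gatad2b, a NuRD subunit (chr3:90292931-90293180, plus strand): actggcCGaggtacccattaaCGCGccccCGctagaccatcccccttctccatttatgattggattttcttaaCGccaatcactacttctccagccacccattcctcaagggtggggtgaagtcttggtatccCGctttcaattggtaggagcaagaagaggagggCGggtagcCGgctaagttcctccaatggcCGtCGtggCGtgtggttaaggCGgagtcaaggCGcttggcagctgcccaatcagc
Rpl27, a ribosomal protein gene (chr11:101441995-101442244, plus strand): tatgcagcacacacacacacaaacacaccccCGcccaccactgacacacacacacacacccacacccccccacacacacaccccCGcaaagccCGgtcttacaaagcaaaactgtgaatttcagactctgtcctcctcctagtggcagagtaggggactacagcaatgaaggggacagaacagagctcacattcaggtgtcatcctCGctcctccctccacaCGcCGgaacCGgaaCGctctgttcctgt
Myl2, ventricular myosin light chain (chr5:122092474-122092723, plus strand): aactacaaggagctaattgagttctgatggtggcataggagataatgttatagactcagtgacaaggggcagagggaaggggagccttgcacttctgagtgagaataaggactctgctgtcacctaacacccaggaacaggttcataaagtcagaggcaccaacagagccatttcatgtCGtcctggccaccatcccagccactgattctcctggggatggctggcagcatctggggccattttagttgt
Csrp3, muscle LIM protein (chr7:48848052-48848301, minus strand): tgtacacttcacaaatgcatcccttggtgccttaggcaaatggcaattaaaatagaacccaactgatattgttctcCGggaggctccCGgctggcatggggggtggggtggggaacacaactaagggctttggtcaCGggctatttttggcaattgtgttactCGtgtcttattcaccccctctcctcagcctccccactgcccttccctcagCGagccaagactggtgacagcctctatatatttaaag
Gja5, connexin of fast-conducting heart muscle (chr3:97032152-97032401, plus strand): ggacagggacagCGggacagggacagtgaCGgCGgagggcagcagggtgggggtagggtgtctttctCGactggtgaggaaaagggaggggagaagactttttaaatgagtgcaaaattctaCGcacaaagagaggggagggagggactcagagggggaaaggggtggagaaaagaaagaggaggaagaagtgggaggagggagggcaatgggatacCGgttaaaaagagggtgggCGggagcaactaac
Nppa, atrial natriuretic peptide (chr4:148000472-148000721, plus strand): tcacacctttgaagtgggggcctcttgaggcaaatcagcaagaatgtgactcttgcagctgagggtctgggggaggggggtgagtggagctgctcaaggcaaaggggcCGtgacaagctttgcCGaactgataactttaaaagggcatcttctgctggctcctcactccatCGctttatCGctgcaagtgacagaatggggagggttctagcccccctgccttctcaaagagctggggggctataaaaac

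The 250 bases of Rpl13a hold 24 CpG, those of Tbx20 22, of Tbx18 15, of Gatad2b 13 and of Rpl27 8. Those of Myl2 hold 1 CpG and those of Csrp3 hold 5, although both lie in regions found in all 3 libraries. The region over the Myl2 promoter (chr5:122092373-122095195) had scores of 558, 447 and 423 in libraries 1, 2 and 3, and Myl2 RNA stood at 1728 RPKM in flox hearts at E9.5. The Gja5 and Nppa stretches hold 7 and 4 CpG. Nppa stood at 864 RPKM in the same hearts, and its stretch lay inside a peak of library 1 alone, while the nearest peak of library 3 was 13939 bp from the start.

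The peaks were short and few of them were wide. The median width was 211 bp in library 1, 185 bp in library 2 and 180 bp in library 3, and 2454, 825 and 516 peaks reached 1 kb. Together the peaks of each list covered 25.6, 15.4 and 12.1 Mb, which is 0.940%, 0.567% and 0.445% of the annotated span of the chromosomes. The score of a peak is the authors' own value, on a scale that the labels do not state. Its lowest value was 13 in every list and its median was 32, 37 and 37. The scores are used here only to rank peaks within a list. The number of reads behind each list is unknown, and library 1 had the most peaks.

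Libraries agreed on the strong and wide peaks and disagreed on the weak and narrow ones. Of the peaks of library 1, 50.1% overlapped a peak of at least 1 other library by 1 bp or more, against 69.0% for library 2 and 72.6% for library 3. An overlap with both other libraries was found for 27.1%, 39.2% and 48.6% of the peaks. Of the peaks of library 2, 62.6% overlapped library 1 and 45.6% overlapped library 3, and of those of library 3, 64.7% overlapped library 1 and 56.5% library 2. Library 1 is the longest list, and libraries 2 and 3 share an input. In the highest score decile 92.8%, 95.6% and 97.1% of the peaks of libraries 1, 2 and 3 were in both other lists, and in the lowest decile 4.35%, 12.0% and 17.5%. Of peaks over 1000 bp, 97.7%, 99.9% and 99.8% were in both others, and of those up to 150 bp, 5.05%, 14.3% and 23.7%.

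**Figure D1:**
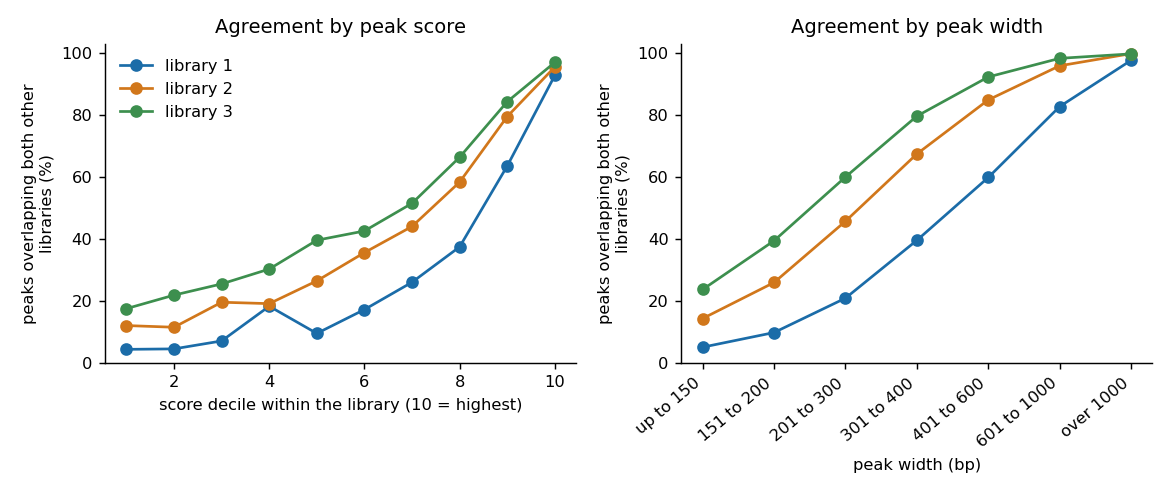
Share of the peaks of each library that overlap a peak of both other libraries (%), by score decile within the library (left) and by peak width in bp (right); each line is 1 library. All 3 lines end above 92% in the highest decile and start between 4.35% and 17.5% in the lowest.

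Merging the 3 lists gave 118422 regions, of which 22547 (19.0%) held a peak of each library; these are called shared regions below. Regions of library 1 alone were the most numerous class, with 42011, against 18834 of library 2 alone and 13780 of library 3 alone. Shared regions had a median width of 537 bp. Over the shared regions the scores of libraries 1 and 2 had a Spearman correlation of 0.66, those of 1 and 3 of 0.60 and those of 2 and 3 of 0.61 (n = 22547 regions, which share a genome and, for libraries 2 and 3, an input). The count of shared regions fell to 8822 when peaks had to overlap by 50% of both, and to 3130 when only the upper 10% of each list by score was used.

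The highest-ranked regions were not at heart genes. The first by mean score rank, chr2:98666246-98667319, had scores of 9919, 17081 and 17199 and lay 1034574 bp from the nearest protein-coding gene, Lrrc4c. The second, chr9:35305224-35305582, lay in the noncoding model Gm33838, and the fourth, chr2:98662240-98662967, lay near the first. The third and sixth, chrM:14121-15798 and chrM:15948-16286, were on the mitochondrial genome. The seventh, chr6:103649069-103649272, lay in the neural adhesion gene Chl1, and the tenth, chr9:3023309-3023734, was 311497 bp from the nearest protein-coding gene. The other 3 of the first 10 lay over small nuclear RNA genes, which make the RNA of the spliceosome: chr11:101657359-101661020 over Rnu2-10, chr9:65200178-65202501 over Rnu5g, and chr11:87426132-87428619 over Gm22068 within Tex14. Of the 30 highest regions 9 overlapped a small nuclear RNA gene, 4 a tRNA gene and 11 a protein-coding gene, 3 were mitochondrial, and 11 overlapped no annotated gene. The part of copy number or of reads that match several places in the genome in these scores was not tested, since no input was analysed here.

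The widest 2 regions lay over tRNA genes, which are transcribed by RNA polymerase III. The widest, chr13:21166641-21173923 (7283 bp), covered 7 tRNA genes, and the next, chr11:48852509-48858410 (5902 bp), covered 4. The third, chr17:29044226-29050121, lay 854 bp from Srsf3, which encodes a splicing factor. The fourth, chr5:122446445-122452167 (5723 bp), lay 1346 bp from Atp2a2, the calcium pump of the heart's sarcoplasmic reticulum. The fifth, chr17:10196219-10201904, lay 4567 bp from Qk, an RNA-binding regulator of splicing in muscle. Of the 30 widest, 11 overlapped tRNA genes.

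Of all annotated tRNA genes, 269 of 408 (65.9%) overlapped a shared region, and the 3 libraries taken singly gave 66.7%, 66.4% and 65.7%. The 173 regions concerned had a median width of 1739 bp, against 537 bp for all shared regions, and a median score rank of 98.8%, against 73.3%. For comparison, 9.71% of protein-coding genes of up to 2 kb, 4.10% of small nucleolar RNA genes, 3.91% of miRNA genes and 0.670% of pseudogenes overlapped a shared region. The share differed between chromosomes: 102 of 105 tRNA genes on chromosome 13 were overlapped, and 4 of 53 on chromosome 6, where none of the 48 in the megabase from 48 Mb was. Small nuclear RNA genes split by name: 11 of 15 with a symbol starting Rnu, the established genes, were overlapped, and 2.97% of the 908 predicted ones with a symbol starting Gm. These families hold near-identical copies, and how reads matching several copies were placed was not stated in the labels, so the assignment to single copies is uncertain.

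CHD4 peaks were sparse on the X chromosome. Library 1 had 33.9 peaks per Mb on the autosomes and 4.39 on X, library 2 had 24.5 and 2.57, and library 3 had 20.2 and 2.11. The X to autosome ratio was thus 0.129, 0.105 and 0.104 in the 3 libraries, and 0.0973 for shared regions (0.885 against 9.09 per Mb), while X carried protein-coding genes at 0.674 of the autosomal density. Chromosome 11 stood highest with 16.5 shared regions per Mb, followed by chromosome 17 with 13.7 and chromosome 19 with 12.0. Per 100 protein-coding genes X held 15.6 shared regions, and the autosomes ranged from 75.7 on chromosome 7 to 131 on chromosome 10.

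**Figure D2:**
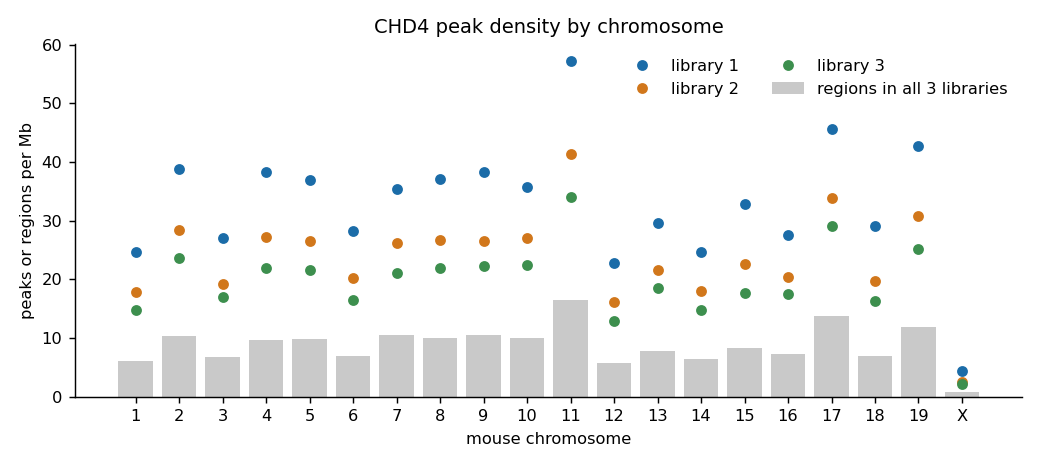
Peaks per Mb of each library (points) and shared regions per Mb (bars) on each mouse chromosome, Y left out. Chromosome 11 is highest and X lowest in each library, at 57.3 and 4.39 peaks per Mb in library 1.

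X-linked genes stayed below autosomal genes of like RNA level. Among genes over 20 RPKM in flox hearts at E9.5, 30 of 110 X-linked genes (27.3%) had a shared region within 5 kb of the start, against 80.9% of 3510 autosomal genes. Between 5 and 20 RPKM the shares were 21.8% and 72.3%, and between 1 and 5 RPKM 14.8% and 52.2%. In library 1 alone, the list with the most peaks, the shares over 20 RPKM were 68.2% and 97.7%. An example on X is Rbbp7, a histone-binding NuRD subunit with 116 RPKM and no shared region near the start, while Smpx, a small muscle protein of the sarcomere, had one with scores of 48, 53 and 62. The sex of the embryos behind each library is not in the labels, and the part of X copy number was not tested.

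Shared regions gathered at gene starts. Of 22541 shared regions outside the mitochondrial genome, 25.9% overlapped the start of a protein-coding or long noncoding gene and 41.8% lay within 1 kb of one, a zone that makes up 3.05% of the annotated span. Within 5 kb lay 58.4%, against 13.2% of the span. Regions of 1 library alone lay within 1 kb of a start in 16.6% of cases, and the upper 10% of shared regions by score in 66.9%. Of shared regions more than 5 kb from a start, 59.5% lay inside a gene.

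Genes with a CHD4 region near the start were mostly genes with RNA in the heart. Of 24373 genes with RNA values and coordinates, 10199 (41.8%) had a shared region within 5 kb of the start, 35.2% had one within 1 kb and 25.6% had one over the start. The start was known from the promoter table for 18175 of these genes, and for the others either end of the gene counted as the start. Among genes named below this second way was used for Actn3, Apoc1, Gata4, Gata6, Hey1, Igfbpl1, Irx5, Kcne1, Myh11, Myom2, Ndufa4l2, Sall4, Spi1, Tbx3, Tbx5, Tnni2, Tnnt3 and Xirp1. The share was 4.58% of genes with 0 RPKM in flox hearts at E9.5, 50.6% of those from 1 to 5 RPKM, 70.6% from 5 to 20 RPKM and 84.4% over 100 RPKM. The median level was 9.38 RPKM for genes with a shared region and 0.0466 RPKM for genes without. At E10.5 the medians were 9.12 and 0.0615 RPKM. Genes with and without a region were separated in the same direction in every quintile of gene length, from 2.27 against 0 RPKM in the shortest to 8.99 against 0.655 RPKM in the longest. Coverage peaked just before the start: 150 bases upstream, 58.4% of 3609 starts over 20 RPKM were covered, and 100 bases upstream, 4.16% of 8126 starts up to 1 RPKM.

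**Figure D3:**
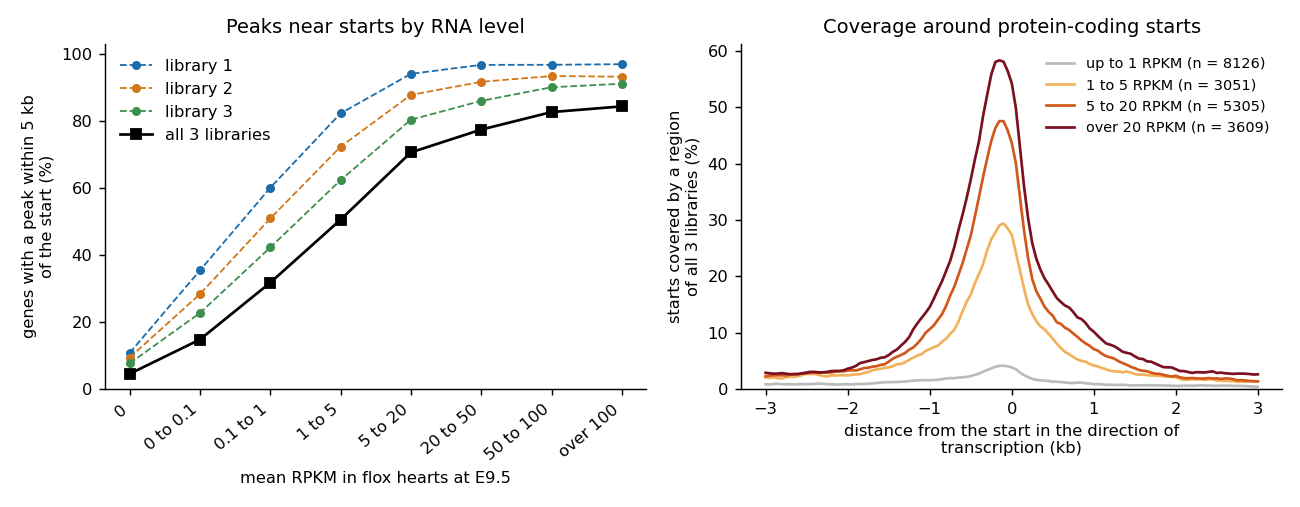
Left, genes with a peak within 5 kb of the start (%) by mean RPKM in flox hearts at E9.5, for each library and for regions of all 3. Right, protein-coding starts covered by a shared region (%) against distance from the start in kb, by RNA level, peaking at 58.4% for starts over 20 RPKM.

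Promoters with a shared region were richer in CpG than those without over all genes, and close to them among active genes. Bound and unbound here mean with and without a shared region, so unbound promoters can still hold peaks of single libraries. Of genes from 5 to 20 RPKM, 94.1% had a peak of library 1 within 5 kb of the start, and 70.6% had a shared region. RefSeq promoters of 300 bases (250 before to 50 after the start) of protein-coding genes had a median of 22 CpG where they overlapped a shared region (n = 6502) and 7 where they did not (n = 14761). Among promoters of genes over 5 RPKM the medians were 22 and 20. In that set a shared region was found at 8.78% of promoters with up to 2 CpG, 38.6% of those with 6 to 10, 69.4% with 21 to 30 and 49.3% with 31 or more. At promoters of genes up to 1 RPKM the share stayed at or below 18.8% in every CpG class. The Myl2 promoter printed above, with 1 CpG in 300 bases, falls in the class that was bound least often, and the Rpl13a and Tbx20 promoters in the class bound most often.

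Motifs were counted on both strands of the same 300 bases, with bound and unbound again meaning with and without a shared region. The ETS motif CCGGAAG was in 24.4% of bound and 12.7% of unbound promoters over 5 RPKM (8.86% of all 32851 promoters), CCAAT in 44.5% and 29.2% (37.4% of all), and the YY1 motif AAGATGG in 9.61% and 5.12% (6.34% of all). The SP motif GGGCGG was in 68.9% and 62.9% (35.7% of all). Motifs of 3 cardiac factor families were no more frequent in bound promoters: AGATAA, read by the GATA factors, was in 5.47% and 6.71% (11.2% of all), the T-box motif AGGTGT in 9.43% and 10.6% (13.7% of all) and the NKX2-5 motif TNAAGTG in 7.95% and 8.60% (11.5% of all). The MEF2 motif was in 3.32% and 2.73% (3.69% of all), the CArG box bound by SRF in 1.56% and 1.35% (1.63% of all), and the TEAD motif GGAATG in 11.7% and 12.2% (14.7% of all). The E-box CANNTG was in 58.8% and 64.5% (72.3% of all), TATAAA in 5.68% and 7.41% (13.6% of all) and the NRF1 motif in 2.33% and 2.13% (0.971% of all). An E-box match can overlap a T-box match, and a match is a run of letters, not a binding site. Promoters of the sarcomere list differed from this picture both with and without a shared region. The 22 with one had a median of 5.5 CpG, and 6 held a MEF2 match, 4 a CArG box and none the ETS motif. The 10 without one had a median of 4.5 CpG, and 3 held a CArG box and none a MEF2 match or the ETS motif. The T-box motif was in 1 of the 22 and 4 of the 10, and AGATAA in 3 of each.

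Among the cardiac transcription factors, 20 of 23 (87.0%) had a shared region within 5 kb of the start, against 41.8% of all genes. The list had a median of 34.7 RPKM in flox hearts at E9.5, and 77.5% of all genes from 20 to 50 RPKM had a shared region. Srf, the serum response factor, ranked highest, with a region of scores 650, 549 and 423 over its start. Tbx3, of the conduction system, followed with 455, 336 and 164, then Tbx20 with 385, 310 and 153, and Nkx2-5, a homeobox factor of the early heart, with 344, 186 and 248. Gata4, Gata5, Gata6, Hand2, Tbx5, Isl1 and the Mef2a, Mef2c and Mef2d genes also had shared regions. The 3 without one were Hey1, Hey2 and Irx4, transcription factors of the heart chambers. The start of Hey2 lay 4, 10 and 456 bp from the nearest peak of libraries 1, 2 and 3, yet the peaks did not form a region of all 3.

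The contractile apparatus was bound to a like extent, with 24 of 28 sarcomere genes (85.7%). The list had a median of 325 RPKM in flox hearts at E9.5, and 84.4% of all genes over 100 RPKM had a shared region. Myl2 ranked highest, followed by Xirp1, an actin-binding protein (scores 204, 210 and 175), Myl4, the atrial light chain (240, 246 and 142), and Tnni1, slow troponin I (304, 233 and 121). Actc1, cardiac actin, had a region with 278, 119 and 193, and Tnnt2, cardiac troponin T, with 149, 221 and 153. The heavy chain genes Myh6 and Myh7 had regions near their starts with 180, 96 and 98 and with 278, 130 and 80. Myl3, a light chain with 1035 RPKM in flox hearts, had none within 5 kb, and neither had Myom1 or Myom2, proteins of the sarcomere M-band.

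Of 24 skeletal muscle genes, mostly but not all of fast fibres, 8 had a shared region, against 41.8% of all genes. The list had a median of 2.65 RPKM against 325 RPKM for the sarcomere list. In libraries 1, 2 and 3 alone the count was 17, 15 and 12 of 24, against 62.2%, 56.2% and 50.1% of all genes. Mylpf, the fast light chain, ranked highest (240, 125 and 235), followed by Actn3, Tpm3 and Tnnt1. Of these Tnnt1 is the slow troponin T, and Tpm3 is not particular to fast fibres. Atp2a1, the calcium pump of fast muscle, had its nearest shared region 12014 bp from the start. Tnni2 and Tnnt3, fast troponins I and T, had theirs at 11743 and 6134 bp. Tnnc2, fast troponin C, had one 4586 bp from the start, at chr2:164784320-164784487, with scores of 19, 18 and 19, near the floor of 13. Single libraries reached closer: library 1 had peaks 531 bp from the Tnnc2 start and 141 bp from the Tnnt3 start, with scores of 19 and 32. It also had peaks 1012 bp from the Tnni2 start and 2145 bp from the Atp2a1 start, with scores of 63 and 56. At Tnni2 library 2 had a peak 920 bp from the start, with a score of 109, and the nearest of library 3 was 7383 bp away. In the smooth muscle list 7 of 12 genes had a shared region, led by Smtn (203, 174 and 142). Myh11, the smooth muscle heavy chain, had its nearest at 22775 bp, while library 1 had a peak 685 bp from its start with a score of 25.

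The chamber and trabecular list had 7 of 16 genes with a shared region, close to all genes, although its median was 25.9 RPKM. In libraries 1, 2 and 3 alone the count was 14, 10 and 11 of 16, against 62.2%, 56.2% and 50.1% of all genes. Irx5, a homeobox factor (399, 336 and 211), and Nppb, the B-type natriuretic peptide (146, 119 and 100), ranked highest, followed by Erbb4 and Ltbp1. Nppa, Gja5, Gja1 and Erbb2 were among the 9 without one, and the nearest shared region was 30184 bp from the Gja5 start and 148181 bp from the Gja1 start. Of 15 calcium-handling and channel genes 9 had one, led by Kcne1 (240, 209 and 164), Slc8a1, Cacna1c and Jph2.

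Of NuRD's own genes 10 of 15 (66.7%) had a shared region within 5 kb of the start, 9 within 1 kb and 7 over the start. The list had a median of 33.2 RPKM in flox hearts at E9.5, and 77.5% of all genes from 20 to 50 RPKM had a shared region. Gatad2b ranked highest (558, 271 and 261), followed by Mbd3, a methyl-CpG-binding-domain subunit (227, 297 and 199), Rbbp4 (385, 174 and 142) and Gatad2a (344, 186 and 120). Chd4 itself had a peak over its start in libraries 1 and 2, with scores of 48 and 62, and one 2 bp away in library 3, and its highest region within 5 kb had scores of 209, 146 and 71. Partner cofactors had 8 of 9, led by Bcl11b, Sall4, Zfpm1 (FOG1, a GATA cofactor) and Zfp219. Ribosomal protein genes had 74 of 81, mitochondrial energy genes 16 of 18, cell cycle genes 14 of 17 and signalling genes 13 of 16. In that order these lists had medians of 6.92, 56.6, 44.7 and 14.9 RPKM in flox hearts at E9.5. A shared region was found at 70.6% of all genes from 5 to 20 RPKM and at 82.7% from 50 to 100 RPKM. Histone genes had 62 of 76, with a median score rank of 99.3% for those bound and a median of 0.107 RPKM. Of markers of the other cells of the heart, 4 of 14 endothelial and endocardial genes, 2 of 10 epicardial, 3 of 13 erythroid and 9 of 12 cushion mesenchyme genes had a shared region. In that order these lists had medians of 30.1, 19.1, 17.1 and 12.5 RPKM in flox hearts at E9.5. Of all genes, 70.6% from 5 to 20 RPKM and 77.5% from 20 to 50 RPKM had a shared region. In single libraries the endothelial count was 12, 9 and 6 of 14, against 62.2%, 56.2% and 50.1% of all genes. Of neuronal genes 7 of 16, of Hox genes 18 of 39, of liver and foregut genes 4 of 10, of keratin genes 3 of 50 and of olfactory receptor genes 3 of 1099 had a shared region. Fewer cells of a type and weaker signal per cell cannot be told apart in such lists, nor in the RNA values of whole tissue.

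**Figure D4:**
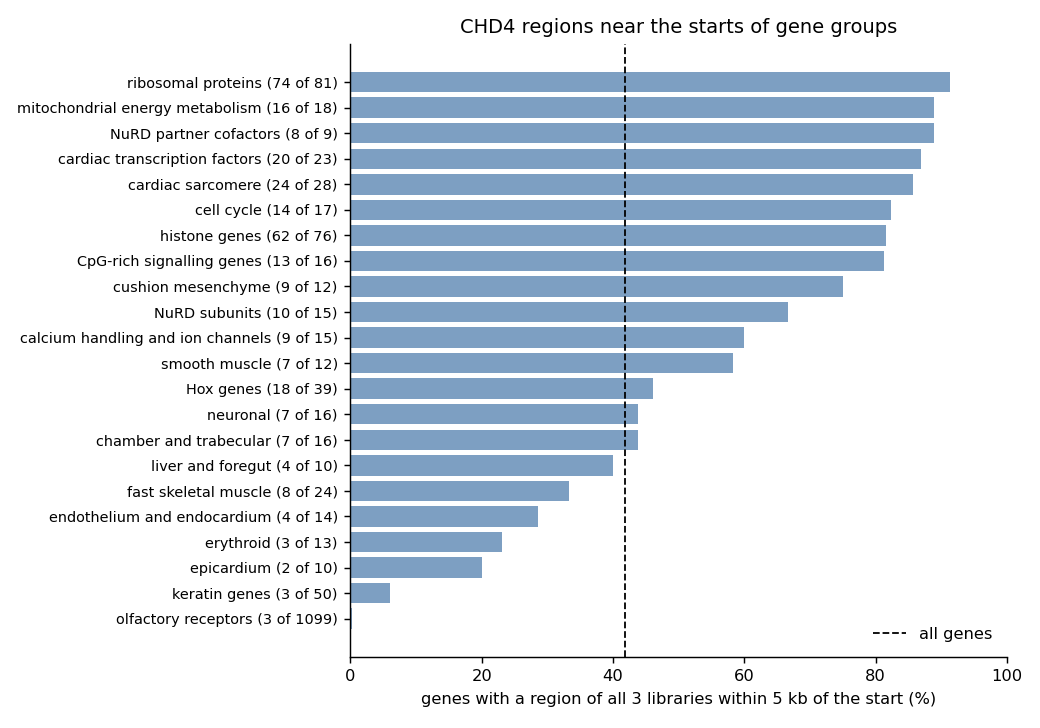
Share of the genes of each group with a shared region within 5 kb of the start (%), with counts in the labels; the dashed line marks all genes at 41.8%. Ribosomal protein genes stand at 74 of 81 and olfactory receptor genes at 3 of 1099. The group labelled fast skeletal muscle also holds genes of slow fibres, such as Tnnt1.

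A few genes held many regions. They are the 15 genes with 20 or more shared regions, a number chosen after the values were seen. Slc8a1, the sodium-calcium exchanger that carries calcium out of heart muscle cells (chr17:81373105-81738387), held 186 shared regions in its body with 5 kb on either side, 0.825% of all shared regions. Libraries 1, 2 and 3 had 396, 370 and 415 peaks there, so library 3, the shortest list, had the most. Shared regions covered 51.1% of this stretch, with a median width of 800 bp, at 49.6 regions per 100 kb, against 0.828 per 100 kb over the annotated span. Ttn, the giant spring of the sarcomere, came next with 81 regions over 25.01% of its stretch, then Qk with 46 over 40.6%, Gse1 with 40, Gata4 with 36 over 33.9%, and Rbpms, an RNA-binding protein of muscle, with 35. Akap2, Ryr2 (the calcium release channel) and Tbx5 followed with 31, 27 and 27. Airn, Rbm20 and Smad6 held 24 each, Nedd4 and Palld 21 each, and Kcnq1 20. Per 100 kb Gata4 reached 43.5, Qk 37.4, Ttn 28.1 and Tbx5 27.4, while Akap2 stood at 6.56, Kcnq1 at 6.06, Palld at 5.23 and Ryr2 at 4.79. A count of regions favours long genes. The shorter genes Myh6 and Nkx2-5, with 17 and 7 shared regions, reached 47.1 and 42.9 per 100 kb. Of all genes, 98 (0.402%) held 10 or more shared regions. The 15 genes stood between 2.28 RPKM (Kcnq1) and 406 RPKM (Nedd4) in flox hearts at E9.5. Their regions were not the highest: the median score rank ranged from 52.4% at Ryr2 to 73.0% at Gse1, against 73.3% for all shared regions.

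Loss of Chd4 was followed in RNA with limma on log2(RPKM + 0.5), and fold changes are on that scale. Chd4 RNA, the check of the labels, was 92.4 ± 1.33 RPKM (SD, n = 5) in flox and 45.7 ± 3.08 in null hearts at E9.5, a difference of -1.01 ± 0.05 (SE; limma adjusted p = 1.69e-06). At E10.5 it was 77.6 ± 12.3 and 52.7 ± 4.61 RPKM (n = 3), which did not pass the test (limma adjusted p = 0.116). The libraries held 14.6 M to 19.96 M gene reads at E9.5 and 15.0 M to 16.1 M at E10.5.

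At E9.5 the share of genes that fell was higher, and the share that rose lower, among genes with a shared region near the start. These are counts over genes, with no test of the difference. Of 13643 genes tested, 17.2% were called at an adjusted p under 0.05 (6.87% rose and 10.3% fell). Of 8809 tested genes with a shared region within 5 kb, 16.8% were called, 4.84% upward and 11.9% downward. Of 4782 without one, 17.98% were called, 10.6% upward and 7.36% downward. Read the other way, a shared region was found at 45.6% of the 934 genes with coordinates that rose, 74.9% of the 1402 that fell and 65.2% of those not called. The filter on low values kept 8809 of the 10199 genes with a shared region. Since the filter uses the mean over both groups, the genes were also split by their flox level alone, keeping those of at least 0.5 RPKM in flox hearts. The order fell, not called, rose was then found in each quintile of flox RPKM, from 52.3%, 43.2% and 32.2% in the lowest to 83.6%, 80.7% and 61.8% in the highest. It was also found for the peaks of library 1, 2 or 3 alone. Rescaling the libraries to a common median moved the split of calls from 40.01% to 52.8% upward, and quantile normalization to 47.3%. With the common median the shares stood at 47.6% for genes that rose and 74.2% for genes that fell. Without null replicate 5 the number of calls was 1537 in place of 2342, and the shares were 43.0% and 73.4%.

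At E10.5 2.07% of 14100 genes were called, 1.77% upward and 0.305% downward. Of tested genes with a shared region 1.51% were called, 1.30% upward and 0.215% downward, and of those without 3.04%, 2.58% and 0.462%. A shared region was found at 46.2% of the 249 genes that rose, 44.2% of the 43 that fell and 63.4% of those not called. In the lowest quintile of flox RPKM genes that rose stood above those not called, with 45.6% of 79 genes against 40% of 2630, and in the next below them, with 38.2% against 59.4%. Leaving out a library moved the number of calls between 62 and 356, and the count fell by over 1.5 times without any 1 of the flox libraries (63, 92 and 62) or without null replicate 2 (139). With a library left out the share at genes that rose lay between 28.6% and 38.0%, below the 46.2% over all libraries, and at genes that fell between 41.5% and 71.4%; both the 28.6% and the 71.4% were without flox replicate 1. With any 1 of the 6 libraries left out the share at genes that fell was the higher, so the order at E10.5 turned. That order rests on few genes: 7, 15 and 7 fell without flox replicates 1, 2 and 3. Without null replicates 1, 2 and 3 the counts were 42, 34 and 20. The stages differ in library number, so their counts of calls were not compared.

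**Figure D5:**
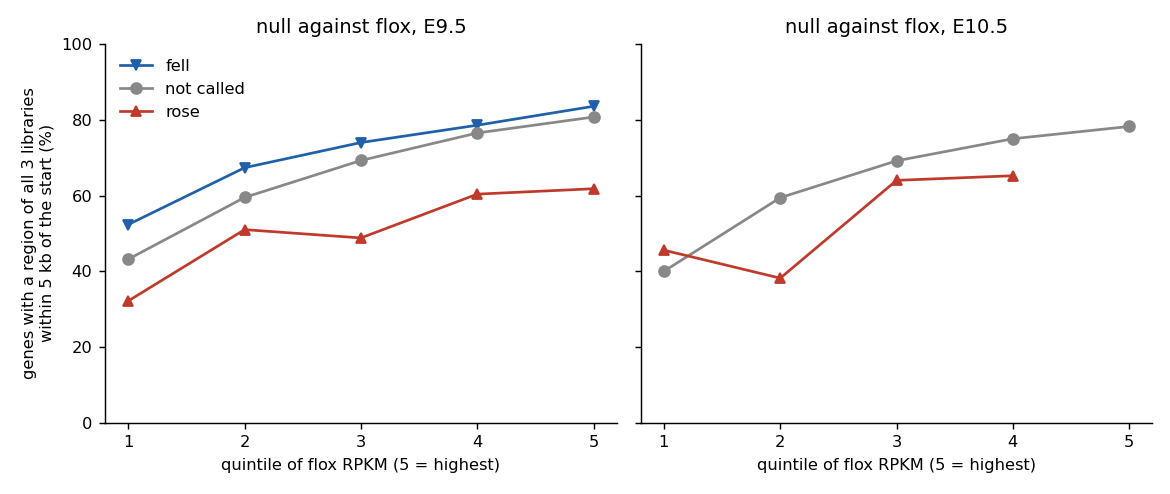
Genes with a shared region within 5 kb of the start (%) among genes that fell, rose or were not called in null against flox hearts, by quintile of flox RPKM (5 is highest) over genes of at least 0.5 RPKM in flox hearts, at E9.5 (left) and E10.5 (right, where classes under 20 genes are left out). At E9.5 genes that rose lie lowest in each quintile, from 32.2% to 61.8%.

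Nkx2-5 joined a strong region with a fall in RNA. Its values in the flox libraries at E9.5 were 141, 103, 132, 111 and 96.8 RPKM, and in the null libraries 58.2, 50.02, 40.6, 31.1 and 34.7 RPKM. Every null library was below every flox library, and the difference was -1.45 ± 0.17 (SE; limma adjusted p = 0.000389). At E10.5 the flox values were 48.1, 23.6 and 43.7 RPKM and the null values 24.6, 22.2 and 25.2 RPKM. The groups overlapped there, and the difference of -0.61 did not pass the test (limma adjusted p = 0.205). The Cre line is not named in the labels, and the part of the Cre allele in this fall was not tested.

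Other genes with a shared region that fell furthest at E9.5 were Cend1, a neuronal differentiation protein (-1.92; regions of scores 40, 44 and 25), Slitrk5, a neuronal membrane protein (-1.61; 74, 37 and 100), and Igfbpl1 (-1.60; 116, 62 and 31), all with limma adjusted p of 0.00136 or lower. Hopx, a homeodomain protein without DNA contact that is active in the heart, fell by 1.15 on the log2 scale, from 83.3 ± 5.00 to 37.3 ± 3.53 RPKM (SD, n = 5), with a region 1655 bp from its start (240, 284 and 193). Cend1, Slitrk5 and Igfbpl1 also fell at E10.5, by 1.82, 2.20 and 1.97. Of the 15 genes with 20 or more regions, 8 fell and none rose at E9.5, against 10.3% and 6.87% of all genes tested. They were Rbm20 (-0.43), Kcnq1 (-0.42), Smad6 (-0.39), Rbpms (-0.29), Tbx5 (-0.27), Akap2 (-0.25), Palld (-0.24) and Slc8a1 (-0.22), with limma adjusted p between 0.00399 and 0.0498. The median over the 15 was -0.24 on the log2 scale. With the libraries scaled to a common median 5 fell, and with quantile normalization 6. Slc8a1 went from 116 ± 6.44 to 99.6 ± 5.88 RPKM (SD, n = 5), and Gata4, Ttn and Qk stood at -0.08, -0.24 and -0.16 without passing the test. At E10.5 none of the 15 passed.

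Several sarcomere genes with strong regions fell at E9.5. Myh6 fell by 0.76, from 491 ± 73.6 to 290 ± 49.4 RPKM (SD, n = 5), Actn2 by 0.51, Csrp3 by 0.48 and Actc1 by 0.35 (limma adjusted p of 0.00399, 0.00328, 0.00130 and 0.0349). Tnnt2, Myl2, Tpm1 and Myh7 stood at -0.21, -0.28, -0.22 and 0.09 and did not pass. At E10.5 Actc1, Tnnt2, Myh6 and Myh7 stood at 0.22, 0.23, -0.13 and 0.62, and none passed the test.

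The fast troponin gene Tnnc2 rose furthest of the genes with a region near the start, and its region had low scores. Its flox values at E9.5 were 2.04, 0.931, 2.08, 1.08 and 1.54 RPKM and its null values 38.4, 68.1, 53.9, 41.8 and 55.3 RPKM. The groups were far apart, with a difference of 4.69 ± 0.20 (SE; limma adjusted p = 5.49e-07), and the mean score rank of the region was 9.66%. At E10.5 the difference was 5.76. Tnnt3, Tnni2, Atp2a1 and Myh11 had no shared region within 5 kb and also rose, Tnnt3 by 2.69 at E9.5 and 4.13 at E10.5, Tnni2 by 1.81 and 2.66, Atp2a1 by 2.23 and 3.87, and Myh11 by 2.45 and 2.74. Each of these genes had a peak of library 1 within 5 kb of the start, as had 77.7% of all genes that rose and 89.7% of those not called at E9.5. Acta1, skeletal actin, rose by 0.91 and 2.44 and had a region 3101 bp from the start with scores of 32, 109 and 53. Further genes with a region that rose at E9.5 were the noncoding gene Lncenc1 (2.41), Apoc1, an apolipoprotein (2.03), and Spi1, a blood cell transcription factor (1.93; region scores 133, 152 and 72). The Spi1 region is also the highest-ranked one within 5 kb of its neighbour Mybpc3, a sarcomere protein with 351 RPKM in flox hearts at E9.5.

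Gja5 fell without a shared region in reach. Its flox values at E9.5 were 34.1, 48.3, 33.9, 50.1 and 43.7 RPKM and its null values 15.4, 22.8, 18.3, 13.3 and 16.3 RPKM. No null library reached a flox library, and the difference was -1.27 ± 0.15 (SE; limma adjusted p = 0.000465). At E10.5 it was -2.13. The nearest peaks of libraries 1, 2 and 3 lay 18791, 19172 and 30196 bp from its start. At E10.5 the genes with a region that rose included Ndufa4l2, a mitochondrial protein induced by low oxygen (4.05; region scores 441, 336 and 223), Ier3 (2.82), Mt1, a metallothionein (2.52; 103, 119 and 53), and Stc2 (2.36). In flox hearts the 3 libraries of Ndufa4l2 averaged 0.824 ± 0.251 RPKM and in null hearts 25.2 ± 19.4 RPKM, so the null libraries varied widely. At E9.5 Ndufa4l2 stood at 23.8 RPKM in flox replicate 4 and at 55.8 RPKM in null replicate 4, and at 0.709 to 1.33 RPKM and 5.13 to 8.19 RPKM in the other libraries of each group. Ier3 and Stc2 were also highest in replicate 4 of both groups. The part of these libraries in the result was not tested.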

How the data were processed

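Peaks were read from 3 deposited lists, 1 per library, with a position and a score for each peak. The score is the authors' value on a scale not given in the sources used here, and it was used only to rank peaks within a list. The submitters' processing notes name the build mm10 and, in no stated role, MACS2, DESeq2 1.6.3, HTSeq 0.6.2, bedtools 2.25.0, SAMtools 1.6 and Bowtie 1.2.0. RNA levels were read as the authors' deposited RPKM values. The authors' deposited table of comparisons also holds log2 fold changes and p-values; only its lists of called genes were used, as an alternative.

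Peaks overlapping by at least 1 bp were merged, and regions with a peak of each library were called shared. A region's rank is the mean over libraries of the percentile of its highest score. Coordinates of genes came from RefSeq for GRCm38.p6, the assembly behind mm10. Of 24509 genes with RNA values 24373 had coordinates and 18175 a start in the promoter table. Chromosome spans run to the end of the last annotated gene, and the promoter table used here holds no entry of chromosome 18. RPKM values were tested on log2(RPKM + 0.5) with limma 3.58.1 in R 4.3.3, 1 fit per stage, two-sided, over genes whose mean reached 0.5 RPKM and with Benjamini-Hochberg adjustment over all genes tested. The overlap code was tested on simulated data. Other steps used Python 3.11.15 with numpy 2.4.6 and pandas 2.3.3.

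Genes were named by rule: the 4 members of each list with the highest region, the 8 called genes with a shared region, at least 1 RPKM and no overlap between groups that rose or fell furthest at each stage, the 10 highest and 5 widest regions, and Chd4 with 12 heart and muscle genes. Not every gene that rose or fell furthest under this rule is described: C2cd4b, Rtn4rl1 and Fbxl22 fell further than Hopx at E9.5 and were left out. Other genes, among them the 15 with the most regions, were named after their values were seen. The members and lists were chosen with earlier results of these data known. Alternatives varied the overlap, score, zone around the start, pseudocount, filter, scaling, replicate block and libraries. Nothing beyond replicate numbers shows which embryos were pooled, and p-values measure the spread between these libraries.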

Additional observations from a re-analysis of the deposited data

Results flagged for a closer look

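Among 27 named genes in groups of 5 libraries, 54 groups were examined for a single library far from the rest, and 2 stood apart; chance gives about 1 in 20 groups. Acta1, skeletal actin, stood at 717.5 RPKM in null replicate 5 at E9.5, while the other null libraries lay between 876.9 and 926.1 RPKM. Myh11, the smooth muscle heavy chain, stood at 2.11 RPKM in flox replicate 3 at E9.5, while the other flox libraries lay between 1.02 and 1.23 RPKM.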

How the results depend on the processing

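The calls at E9.5 (2342) were 3698 with the replicate block and 1537 to 2773 with 1 library left out, lowest without null replicate 5. Same-numbered libraries did not deviate together in every pair (correlations of 0.451, 0.0417, -0.136, 0.519 and 0.258 at E9.5, and 0.0509, 0.106 and -0.0299 at E10.5), so the numbers were not taken to pair the samples; 6 of 10 and 3 of 6 libraries correlated best with their own number. At E10.5 the block gave 269 calls in place of 292. There were 162 without the filter, 1357 genes were called in the authors' deposited table, and with 1 library left out 62 to 356. The share of genes with a shared region among those that rose at E9.5 (45.6%) was 38.6% without the filter, 49.7% with quantile normalization, 35.0% and 76.1% for zones of 1 kb and 50 kb, 77.7%, 67.2% and 56.7% for libraries 1, 2 and 3 alone, 57.9% for the gene body, 31.05% for the upper 50% of regions by score and 41.8% to 45.4% with 1 library left out. Among genes of at least 0.5 RPKM in flox hearts, chosen after seeing the data, it was 47.6%, and 49.8% at E10.5. Among those that fell (74.9%) it was 72.4% without the filter, 69.5% and 90.7% for the 2 zones, 95.0%, 89.5% and 82.0% for single lists, 82.2% for the body, 57.8% for the upper 50% and 72.7% to 76.4% with 1 left out. At E10.5 the share among those that rose (46.2%) was 32.9%, 30.9%, 84.3%, 77.5%, 69.1%, 59.4%, 57.8% and 34.1% under no filter, the 2 zones, the 3 lists, the body and the upper 50%, and 28.6% to 38.0% with 1 left out. Among those that fell (44.2%) it was 74.4% for 50 kb, 76.7% for library 1, 25.6% for the upper 50% and 41.5% to 71.4% with 1 left out. Shared regions (22547) numbered 8822 at 50% overlap, 12528 and 3130 for the upper 50% and 10% of each list, and 26605 to 34150 over pairs of libraries, highest without library 3. The share of peaks found in another library (50.1%, 69.0% and 72.6%) was 30.4%, 44.1% and 44.7% at 50% overlap, 54.8%, 77.4% and 81.0% for the upper 50%, 64.7%, 81.7% and 84.9% for the upper 10%, and 54.8% and 69.8% for libraries 1 and 2 merged within 1 kb. The share of all genes with a shared region (41.8%) was 35.2% and 65.7% for the 2 zones, 62.2%, 56.2% and 50.1% for single lists, 20.4% at 50% overlap, 30.2% for the upper 50% and 42.7% for genes of known strand, an alternative chosen after seeing the data. Chromosome 11 over the autosomes (1.69) was 1.81 for shared regions, 1.77 for the upper 50% and 1.07 per gene; X (0.113) was 0.0973 and 0.167 for shared regions and per gene. The share within 1 kb of a start (41.8%) was 58.4% for 5 kb, 38.6% by the centre, 52.5% for the upper 50%, and 27.5%, 29.7% and 28.8% for single lists. The log2 ratio of median RPKM with and without a region (7.65) was 7.21 at E10.5, 7.32 for 1 kb, and 8.66, 7.05, 5.77 and 3.78 in length quintiles 2 to 5; the first gave no value because its median without a region is 0. The majority of the E9.5 calls turned from falls to rises under the common median (1151 rose, 1029 fell), and at E10.5 the order of the 2 shares turned with any 1 library left out. Only 7 to 42 genes fell in those E10.5 fits. The cause of each move was not tested. Peak lists without read counts or input values set no limit on what weak peaks can show beyond their agreement between libraries.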
